A study of Mus musculus with 16 samples.

Results

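Left atrium (LA) and right atrium (RA) were compared in Swiss Agouti mice (SA_12), an outbred wild-type strain, with 4 LA and 4 RA arrays out of the 16 arrays of the series. The 8 arrays were selected by the strain and side in their labels, and all 25697 gene probes of the array entered the comparison. The other 8 arrays of the series, 4 LA and 4 RA, came from MF1 mice (MF1_12), a second outbred wild-type strain. None of the mice carried a transgene or received a treatment. The labels give an age of 12 months for both strains, as do the study's array methods, while its section on tissue gives a younger age for the Swiss Agouti mice. The study lists the Swiss Agouti mice as female and the MF1 mice as male, so that strain, sex and dataset cannot be told apart. Each atrium was shock-frozen whole and hybridized alone to an Illumina MouseRef-8 array.

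The LA receives oxygenated blood from the pulmonary veins, whereas the RA receives the systemic and cardiac venous blood and holds the sinus node, the pacemaker of the heart. Side identity is laid down in the embryo by left-right signalling and is kept in part in the adult atria. An atrium holds cardiomyocytes together with endothelium, endocardium, fibroblasts, vessels, nerves and immune cells, and a whole-tissue array sums all of them. Fewer cells of a type and less RNA per cell therefore cannot be told apart in these data.

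The deposited values are on the log2 scale and were set by the authors relative to the median of each probe, so that 0 is a typical array and not a low level. A difference of 1 between LA and RA is a 2-fold difference. Levels, and with them the presence or absence of tissue markers, cannot be read from centred values, and only differences between arrays are described. To pass, a probe needed a limma adjusted p below 0.05 together with more than a 1.5-fold difference. Folds are given as the higher atrium over the lower one, with the standard error (SE) of the log2 difference. The methods give 4 mice per strain, with both atria of a heart stored separately, so that the 4 LA and 4 RA arrays come from the same 4 mice as far as they tell. The labels number the arrays of each side without stating that a number is an animal, and where a fit with the number as a block changed a call, its value is given beside the result. On the first principal component, which held 35.6% of the variance, LA arrays lay between -14.9 and -8.86 and RA arrays between 11.2 and 13.1. The spread of an array around its group mean was 0.0989 to 0.125 in LA and 0.0951 to 0.11 in RA (SD over probes), with LA replicate 4 the highest.

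In Swiss Agouti atria, 162 probes passed (0.63% of all probes), with LA the higher side for 74 (0.288%) and RA for 88 (0.342%). The adjusted p alone was met by 2.02% of all probes, and an unadjusted p under 0.05 by 6.16% with LA higher and 6.47% with RA higher. For every one of the 162 probes, all 4 LA arrays lay on one side of all 4 RA arrays, which was the case for 7.17% of all probes (3.46% with LA above RA and 3.71% with RA above LA). Counted over named genes, these shares were 3.85% and 4.08%. The differences were larger on the RA side at the extreme. Above 5-fold there were 2 probes higher in LA and 9 higher in RA, and above 3-fold 8 and 13. The median fold was 1.83 for probes higher in LA and 1.8 for those higher in RA. The passing probes named 135 genes, 58 higher in LA (0.35% of 16590 named genes) and 77 higher in RA (0.464%), and no gene had passing probes on both sides. These shares are the background for each list's count of passing genes below. The annotation used leaves 11 of the passing probes unnamed, 7 higher in LA and 4 higher in RA.

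**Figure D1:**
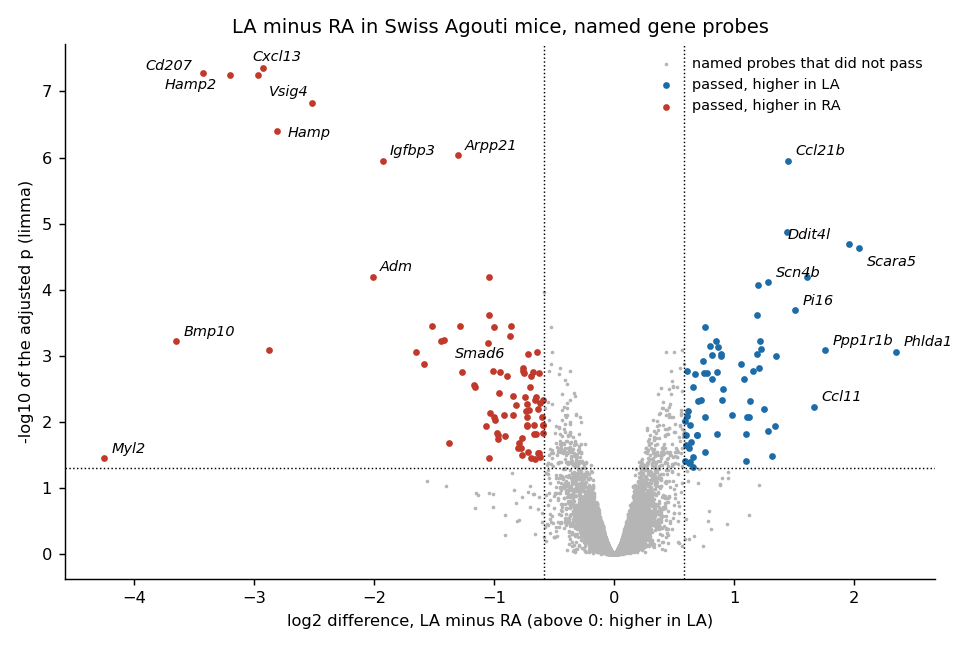
Each point is a named gene probe of the Swiss Agouti arrays, with the log2 difference LA minus RA on the x axis and -log10 of limma's adjusted p on the y axis; dotted lines mark the 1.5-fold and 0.05 limits. Genes higher in RA reach larger differences (Myl2 19.0-fold, Bmp10 12.5-fold) than those higher in LA (Phlda1 5.09-fold).

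**Figure D2:**
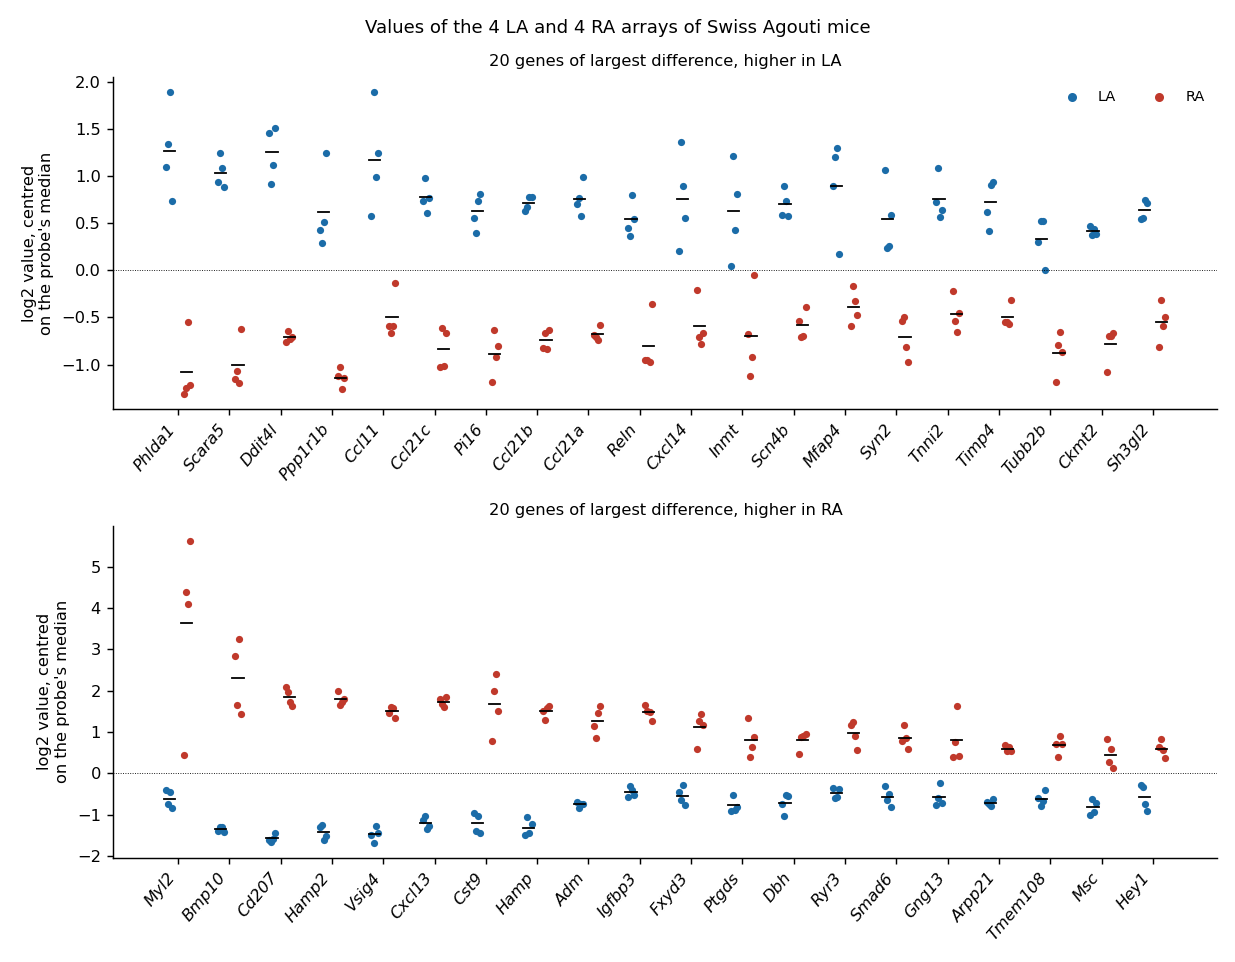
Log2 value of every LA array (blue, left) and RA array (red, right) for the 20 genes of largest difference on each side, with a bar at the mean; values are centred on each probe's median. LA and RA points do not overlap for any of the 40 genes, and the RA values of Myl2 spread from 0.45 to 5.62.

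Bone morphogenetic proteins (BMPs) are secreted ligands that bind paired type I and type II receptors on the cell surface and act through SMAD transcription factors. Cells answer with a small set of direct target genes, among them the Id genes, the inhibitory Smad6 and, in the liver, hepcidin. BMP10 is made by trabecular cardiomyocytes of the embryo and in the adult mainly by the atria.

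Bmp10 had log2 values of -1.40, -1.30, -1.30 and -1.42 in LA, against 2.85, 1.66, 3.24 and 1.43 in RA. LA arrays lay within a narrow band, while RA arrays spread widely above it. Bmp10 was 12.5-fold higher in RA (SE 0.344, adjusted p = 0.000601). It was the only member of the list of 13 atrial cardiomyocyte genes that passed. The atrial hormones Nppa and Nppb differed by -0.04 (SE 0.062) and -0.14 (SE 0.245) on the log2 scale, LA minus RA, and the atrial calcium pump inhibitor Sln by 0.07 (SE 0.058).

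Of 36 measured BMP and TGFb ligands, receptors and antagonists, 1 passed with LA higher and 2 with RA higher, with a median difference of 0.02 against -0.0004 over all named genes. The ligand Bmp3, which can oppose other BMPs, was 1.61-fold higher in LA (SE 0.118, adjusted p = 0.0158). The endothelial co-receptor Eng, or endoglin, was 1.59-fold higher in RA (SE 0.113, adjusted p = 0.0152). Bmp3 lost its call without RA replicate 3 (adjusted p = 0.0585), and Eng fell to 1.49-fold without LA replicate 4. The type I receptor Acvr1 differed by -0.40 (SE 0.084, adjusted p = 0.0395), short of 1.5-fold. The other receptors shown did not pass, with Acvrl1, the main BMP10 receptor of endothelium, at 0.04 (SE 0.069), and the BMP antagonist Chrd differed by 0.39 (SE 0.092, adjusted p = 0.0716).

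Among 23 measured BMP and TGFb response genes, 6 passed with RA higher and 0 with LA higher. Over all named genes these shares were 0.464% and 0.35%. All RA arrays lay above all LA arrays for 10 of 23, against 4.08% of all named genes. The median of the list was -0.12. The list was put together with the differences of some of its members already known, so its count is a description. The 6 passing members were Hamp, Hamp2, Smad6, Hey1, Id2 and Id3. Each was higher in RA in MF1_12 too and passed there. The study had already listed these genes as higher in RA in all of its datasets, MF1_12 among them. The agreement in MF1_12 is therefore not separate support.

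Hamp and Hamp2 encode hepcidin and its mouse paralogue. Hepcidin is the peptide hormone that lowers the iron exporter ferroportin, and its liver transcription is driven by BMP signalling. Hamp had log2 values of -1.50, -1.06, -1.45 and -1.22 in LA, against 1.52, 1.28, 1.58 and 1.63 in RA. Hamp2 had -1.29, -1.25, -1.60 and -1.51 in LA, against 1.98, 1.65, 1.72 and 1.81 in RA. The arrays of each side lay close together, and the gap between the sides was several times their spread. Hamp was 7.0-fold higher in RA (SE 0.106, adjusted p = 4e-07) and Hamp2 9.21-fold (SE 0.094, adjusted p = 5.55e-08). They are neighbours on chromosome 7 and near-identical copies, so that each probe may also read the other transcript.

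The 250 bases before the start of Hamp, Hamp2 and Id2 are shown because these genes moved together and because Hamp and Id2 hold the letters GGCGCC, a core of BMP-responsive elements. Sequences are from RefSeq (GRCm38.p6), 5′ to 3′ on the gene's strand, with Hamp at chr7:30944030-30944279, Hamp2 at chr7:30924182-30924431 and Id2 at chr12:25096093-25096342, all on the minus strand. Capitals mark GGCGCC in Hamp and Id2 and the aligned bases in Hamp2.
Hamp: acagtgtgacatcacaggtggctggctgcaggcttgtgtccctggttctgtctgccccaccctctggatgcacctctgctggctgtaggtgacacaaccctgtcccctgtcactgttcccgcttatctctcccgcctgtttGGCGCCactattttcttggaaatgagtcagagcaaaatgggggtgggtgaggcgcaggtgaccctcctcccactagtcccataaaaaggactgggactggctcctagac
Hamp2: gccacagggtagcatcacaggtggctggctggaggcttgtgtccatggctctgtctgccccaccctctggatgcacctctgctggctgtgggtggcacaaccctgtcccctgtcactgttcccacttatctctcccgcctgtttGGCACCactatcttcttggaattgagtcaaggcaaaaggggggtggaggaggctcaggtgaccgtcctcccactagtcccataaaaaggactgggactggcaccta
Id2: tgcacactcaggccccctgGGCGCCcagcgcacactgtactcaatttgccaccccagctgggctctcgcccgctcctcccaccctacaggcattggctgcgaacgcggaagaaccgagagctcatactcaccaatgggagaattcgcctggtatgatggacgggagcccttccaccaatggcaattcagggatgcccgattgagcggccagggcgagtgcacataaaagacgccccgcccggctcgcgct

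The Hamp and Hamp2 stretches were identical at 227 of 247 aligned bases (91.9%). In Hamp the letters lie 109 to 104 bases before the start, and the aligned stretch of Hamp2 differs from them by G4A, counted from 1 at the 5′ end of the capitals. The letters GGCGCC, which read the same on both strands, were in the window of 2 of the 5 passing members that the promoter table lists (Hamp and Id2), of 7 of the 16 listed members in all, and of 15.0% of the measured named genes. A match is a run of letters and not a shown binding site.

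Smad6, an inhibitor of BMP signalling that BMPs induce, had values of -0.31, -0.65, -0.49 and -0.82 in LA, against 0.79, 1.17, 0.86 and 0.58 in RA. It was 2.67-fold higher in RA (SE 0.131, adjusted p = 0.000574), and a second Smad6 probe was 1.7-fold higher (SE 0.15, adjusted p = 0.0308), a call that 5 of the 8 fits without 1 array lost (highest adjusted p = 0.0986, without LA replicate 3, and also without LA replicates 1, 2 and 4 and RA replicate 3). Hey1, a transcriptional repressor downstream of Notch and BMP, had values of -0.28, -0.34, -0.73 and -0.92 in LA, against 0.64, 0.82, 0.56 and 0.37 in RA, or 2.24-fold higher in RA (SE 0.144, adjusted p = 0.00271). The dominant-negative helix-loop-helix proteins Id2 and Id3 were 1.94-fold (SE 0.124, adjusted p = 0.00358) and 1.69-fold (SE 0.084, adjusted p = 0.00151) higher in RA. The LA and RA arrays of all of these probes stood apart. A second Id2 probe differed by -0.36 (SE 0.069, adjusted p = 0.028), short of the fold limit. Their relative Id1 had values of -0.25, -0.90, -0.39 and -1.24 in LA, against -0.03, 0.03, 0.32 and 0.30 in RA, and missed the adjusted threshold at 1.8-fold (adjusted p = 0.0596), with LA replicate 4 the lowest and LA replicate 1 the nearest to RA.

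**Figure D3:**
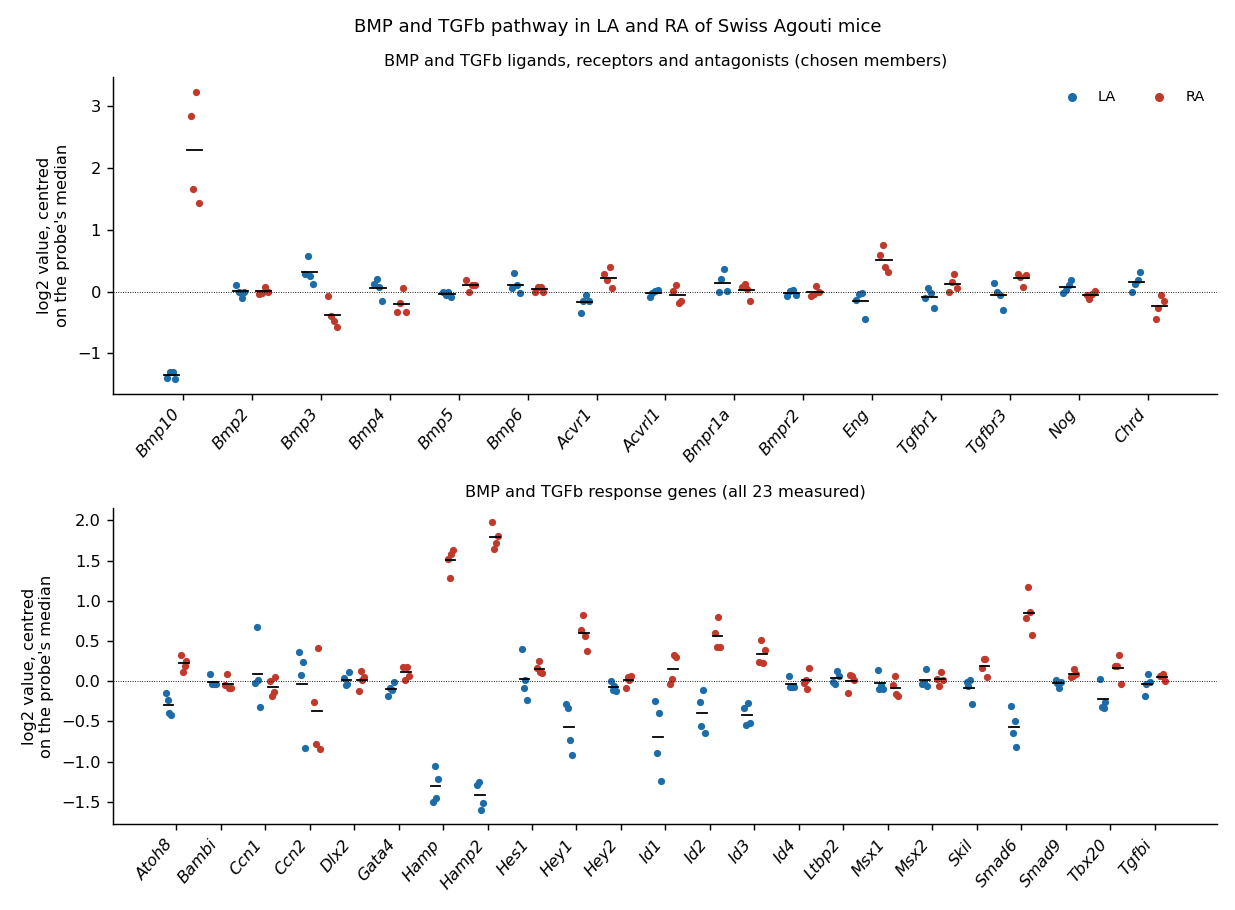
Log2 value of every LA array (blue, left) and RA array (red, right), with a bar at the mean, for chosen ligands, receptors and antagonists (upper panel) and the 23 measured response genes (lower panel); for a gene of several probes, the probe of largest difference is drawn. Bmp10 stands out among the ligands, and Hamp, Hamp2, Smad6, Hey1, Id2 and Id3 lie higher in RA without overlap.

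In the list of 24 iron genes, Hamp, Hamp2 and Cd163, the macrophage scavenger receptor for haemoglobin-haptoglobin, passed on the RA side, and Scara5, a receptor that takes up ferritin, on the LA side. Cd163 passed at 1 of its 2 probes (-0.66, against 0.07 at the other), and 6 of the 8 fits without 1 array lost that call. The hepcidin target Slc40a1, or ferroportin, differed by 0.21 (SE 0.143), and the hepatic iron sensor Tfr2 by -0.04 at either of its probes (SE 0.051 and 0.047). Neither passed.

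Resident macrophages and dendritic cells of the heart take up debris and present antigen, and chemokines guide immune cells into tissue. Several of the sharpest differences of the Swiss Agouti atria were in genes of such cells. Cd207, or langerin, a lectin of Langerhans cells, had values of -1.60, -1.65, -1.58 and -1.43 in LA, against 2.09, 1.97, 1.73 and 1.64 in RA. It was 10.7-fold higher in RA (SE 0.097, adjusted p = 5.29e-08), and a second Cd207 probe was 5.71-fold higher (SE 0.085, adjusted p = 1.48e-07). Of 16 measured genes of dendritic and Langerhans cells Cd207 was the single one that passed, and the list's median was 0.02. The dendritic cell integrin Itgax differed by 0.03 (SE 0.052).

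Vsig4, through which macrophages bind complement-coated particles, had values of -1.48, -1.67, -1.27 and -1.43 in LA, against 1.46, 1.61, 1.59 and 1.34 in RA, or 7.81-fold higher in RA (SE 0.089, adjusted p = 5.55e-08). The macrophage list did not move as one. Among its 21 measured genes, LA was higher for 2 that passed and RA for 4, with a median of 0.03. Those higher in LA were Clec10a, a lectin of alternatively activated macrophages (1.97-fold, SE 0.145, adjusted p = 0.00779), and F13a1, the coagulation factor XIII subunit made by macrophages (2.08-fold, SE 0.114, adjusted p = 0.00132). Besides Vsig4, those higher in RA were the complement subunit C1qb (1.61-fold), Cd163 (1.58-fold at 1 of 2 probes) and Lyve1, a hyaluronan receptor of macrophages and lymphatic vessels (1.54-fold).

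The calls of C1qb, Cd163 and Lyve1 did not hold under the omission of most single arrays. C1qb lost its call without any of LA replicates 1 and 2 and RA replicates 1, 3 and 4 (adjusted p up to 0.0975), and with the replicate block (0.0691). For Cd163 this held for LA replicates 1 and 3 and for each RA replicate (up to 0.114), and for Lyve1 for each array but LA replicate 4 (up to 0.0951). Vsig4, Clec10a and F13a1 kept theirs under every omission. Without 1 array the list's count higher in RA was 1 to 4, and that higher in LA 2 to 4. With all 16 arrays fitted together these counts were 1 and 2. The lysozymes Lyz2 and Lyz1, neighbours on chromosome 10 and products of myeloid cells, were 1.94-fold and 1.8-fold higher in RA (SE 0.11 and 0.111, adjusted p = 0.00175 and 0.00405). Each passed at 1 of 3 probes, the others differing by -1.04 (SE 0.283, adjusted p = 0.117) and -0.18 for Lyz2 and by -0.19 and 0.07 for Lyz1. They are close paralogues whose probes may share signal.

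MHC class II genes, which present antigen, had a median difference of -0.24 over 14 measured genes, and 0 passed in limma. The unadjusted p was under 0.05 for 0 genes on the LA side and 9 on the RA side, against 6.16% and 6.47% of all probes. Cd74, the invariant chain, had values of -1.90, -0.07, -0.98 and -1.26 in LA, against 1.41, 0.05, 0.29 and 0.26 in RA (unadjusted p = 0.00203). H2-Aa had -1.06, -0.16, -0.65 and -0.79 in LA, against 1.25, 0.00, 0.04 and 0.09 in RA (unadjusted p = 0.00438). LA replicate 2 lay near the RA arrays, and RA replicate 1 far above the others of its side. The mean over the list was -0.502, -0.045, -0.26 and -0.334 in the LA arrays, against 0.518, -0.024, 0.093 and 0.021 in the RA arrays.

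Of 40 measured chemokines, 6 passed on the LA side and 2 on the RA side, with a median of -0.02. Over all named genes the passing shares were 0.35% and 0.464%. In limma 0 of 20 chemokine receptors passed. At an unadjusted p under 0.05 there was 1 receptor on each side, against 6.16% of all probes with LA higher and 6.47% with RA higher. The largest chemokine difference was in Cxcl13, which attracts B cells, with values of -1.12, -1.04, -1.34 and -1.28 in LA, against 1.79, 1.67, 1.61 and 1.84 in RA, or 7.59-fold higher in RA (SE 0.077, adjusted p = 4.46e-08). The arrays of each side differed little. The list of 12 B and plasma cell genes had a median of -0.05, and the Cxcl13 receptor Cxcr5 had differences between -0.11 and -0.01 at its 3 probes. Pf4, a chemokine of platelets and megakaryocytes that macrophages also make, was 1.65-fold higher in RA (SE 0.1, adjusted p = 0.00537).

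On the LA side stood the lymphoid chemokine genes Ccl21a, Ccl21b and Ccl21c, whose product draws dendritic cells and T cells to lymphatic vessels. Ccl21b had values of 0.63, 0.67, 0.78 and 0.78 in LA, against -0.82, -0.66, -0.83 and -0.63 in RA, or 2.74-fold higher in LA (SE 0.063, adjusted p = 1.12e-06). Ccl21a was 2.72-fold (SE 0.082, adjusted p = 1.32e-05) and Ccl21c 3.04-fold higher in LA (SE 0.111, adjusted p = 6.28e-05). The 3 genes are near-identical copies whose probes may share signal, so they do not count as 3 separate observations. Their receptor Ccr7 differed by -0.04 (SE 0.062).

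Ccl11, or eotaxin, which attracts eosinophils, was 3.18-fold higher in LA (SE 0.234, adjusted p = 0.00586), with values of 0.58, 1.89, 0.99 and 1.24 in LA, against -0.59, -0.66, -0.59 and -0.13 in RA. Its second probe was 1.81-fold higher, just past the limit without RA replicate 3 (adjusted p = 0.0504). Cxcl14, a chemokine of stromal cells, had values of 0.21, 1.36, 0.89 and 0.56 in LA, against -0.21, -0.71, -0.78 and -0.66 in RA, or 2.54-fold higher in LA (SE 0.215, adjusted p = 0.0115). LA replicate 1 was the lowest LA array for both genes. Cxcl12, which retains progenitor cells through Cxcr4, was 2.15-fold higher in LA (SE 0.167, adjusted p = 0.00848) and passed at 2 of 5 probes, with the lowest at 0.02. The second probe of Cxcl14 differed by 0.58 (SE 0.1, adjusted p = 0.0167), short of the fold limit.

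Reln, or reelin, a secreted matrix protein that lymphatic endothelium makes, was 2.55-fold higher in LA (SE 0.141, adjusted p = 0.00101), with values of 0.45, 0.36, 0.80 and 0.55 in LA, against -0.95, -0.95, -0.97 and -0.36 in RA. With the Ccl21 genes it made up the 4 of 13 lymphatic endothelium genes that passed higher in LA, and Lyve1 was the single one higher in RA. Over all named genes these shares were 0.35% and 0.464%. The list's median was 0.17. The lymphatic master regulator Prox1 had an adjusted p of 0.0237 at one probe with a difference of 0.41, short of 1.5-fold, and a difference of 0.01 at its second probe. The lymphatic growth factor receptor Flt4 differed by -0.03 (SE 0.049) and -0.02 (SE 0.052). The part of lymphatic vessels in the Ccl21 and Reln values was not tested.

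Fibroblasts lay down and remodel the collagen network of the atrial wall. Of 23 measured fibroblast genes, 8 passed on the LA side and 1 on the RA side, and 18 had a difference above 0. Over all named genes these shares were 0.35%, 0.464% and 49.7%. The list's median of 0.34 was the highest of the 70 lists. Its mean was 0.228, 0.418, 0.398 and 0.030 in the LA arrays, against -0.246, -0.127, -0.149 and -0.204 in the RA arrays, with LA replicate 4 the lowest of its side. Here too the list was made with the differences of several members known.

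Scara5 had values of 0.94, 1.24, 1.09 and 0.88 in LA, against -1.15, -1.07, -1.19 and -0.62 in RA, or 4.13-fold higher in LA (SE 0.125, adjusted p = 2.31e-05). Pi16, a marker of adventitial progenitor fibroblasts, had 0.56, 0.40, 0.74 and 0.81 in LA, against -1.18, -0.63, -0.92 and -0.80 in RA, or 2.85-fold (SE 0.12, adjusted p = 0.000202). Both separated the sides by more than the whole range within either of them. Mfap4, a microfibril protein, was 2.43-fold (SE 0.212, adjusted p = 0.0138) and the serine protease Htra3 2.19-fold higher in LA (SE 0.153, adjusted p = 0.00485). Mfap4 was at 0.17 in LA replicate 4, against 0.90 to 1.30 in the other LA arrays.

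The proteoglycan Lum and the stromal surface protein Cd248 passed narrowly, at 1.54-fold and 1.55-fold. Cd248 lost its call without any of LA replicates 1, 2 and 3 and RA replicates 1, 2 and 4 (adjusted p up to 0.111), and Lum without any array but LA replicate 4 (up to 0.125). The replicate block took both calls (0.0801 for Cd248 and 0.0622 for Lum), and the second Cd248 probe differed by 0.20 (SE 0.085). Tcf21, a transcription factor of fibroblast precursors, ran the other way, with values of -0.16, -0.35, 0.03 and -0.85 in LA, against 0.62, 0.71, 0.82 and 0.43 in RA. It was 1.97-fold higher in RA (SE 0.163, adjusted p = 0.0146) and missed the threshold without RA replicate 3 (adjusted p = 0.0553). In limma 0 of 37 collagens passed (median 0.05), and 25 of 37 were above 0, against 49.7% of all named genes. The unadjusted p was under 0.05 for 6 collagens on the LA side and 1 on the RA side, against 6.16% and 6.47% of all probes. Col1a1 differed by 0.10 (SE 0.172), and Pdgfra, the fibroblast receptor, by 0.34 (SE 0.108, adjusted p = 0.19).

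Syn2 and Timp4, neighbours on chromosome 6, were both higher in LA. Timp4, an inhibitor of matrix metalloproteinases abundant in heart, lies within Syn2, a synaptic vesicle protein gene. Timp4 was 2.33-fold (SE 0.115, adjusted p = 0.000601) and Syn2 2.38-fold higher in LA (SE 0.177, adjusted p = 0.00627), and without strand information of the probes their signals cannot be told apart with certainty. Timp4 and the gelatinase Mmp2 (1.68-fold higher in LA, SE 0.087, adjusted p = 0.00182) were the passing members of 23 matrix metalloproteinase and inhibitor genes. Of 22 basement membrane genes the laminin subunit Lamb3 alone passed, at 1.87-fold on the LA side (SE 0.115, adjusted p = 0.00315).

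Among named genes the largest difference on the LA side was in Phlda1, an early-response gene induced by growth factors. Phlda1 had values of 1.10, 1.34, 1.89 and 0.74 in LA, against -1.31, -1.25, -0.55 and -1.22 in RA, or 5.09-fold higher in LA (SE 0.235, adjusted p = 0.000855). RA replicate 3 lay apart from the other RA arrays, still below every LA array. Of 29 immediate early genes, Phlda1 was the one higher in LA and Arc the one higher in RA.

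Ddit4l, a stress-induced inhibitor of mTOR signalling in muscle, had values of 1.46, 0.92, 1.12 and 1.51 in LA, against -0.76, -0.64, -0.73 and -0.71 in RA, or 3.89-fold higher in LA (SE 0.117, adjusted p = 2.03e-05). It was the one of 20 stress response and mTOR inhibitor genes that passed, and its relative Ddit4 differed by 0.23 (SE 0.098). Ppp1r1b, an inhibitor of protein phosphatase 1 known as DARPP-32, had values of 0.43, 0.29, 0.51 and 1.25 in LA, against -1.12, -1.03, -1.26 and -1.14 in RA, or 3.38-fold higher in LA (SE 0.174, adjusted p = 0.000808). Arpp21, another phosphoprotein regulated by cyclic AMP in the brain, had -0.70, -0.74, -0.78 and -0.62 in LA, against 0.68, 0.54, 0.64 and 0.53 in RA, or 2.47-fold higher in RA (SE 0.055, adjusted p = 9.11e-07). A second Arpp21 probe was 1.81-fold higher in RA (SE 0.074, adjusted p = 0.00035), while its other probes differed by -0.07 and 0.05 and did not pass. Ppp1r1b passed at 1 of 3 probes, with 0.35 (SE 0.089, adjusted p = 0.0913) and 0.15 (SE 0.062) at the others.

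In the lists of excitation and contraction genes, at most single members passed on a side, and no list was tested as a whole. Scn4b, a beta subunit of voltage-gated sodium channels, had values of 0.59, 0.90, 0.74 and 0.58 in LA, against -0.54, -0.71, -0.70 and -0.39 in RA, or 2.44-fold higher in LA (SE 0.091, adjusted p = 7.59e-05). It was the one passing gene of 22 sodium channels and connexins. In limma 0 of 82 potassium and HCN channel genes passed, and the median was -0.004. The unadjusted p was under 0.05 for 5 on the LA side and 9 on the RA side, against 6.16% and 6.47% of all probes. All LA arrays lay above all RA arrays for 2 and the reverse held for 3, against 3.85% and 4.08% of named genes. Ryr3, a calcium release channel, had -0.35, -0.59, -0.56 and -0.37 in LA, against 1.18, 1.25, 0.91 and 0.56 in RA, or 2.72-fold higher in RA (SE 0.135, adjusted p = 0.000597). Ryr3 was the one of 33 calcium handling genes to pass. The list's median was 0.05, with 22 of 33 above 0, against 49.7% of all named genes. The unadjusted p was under 0.05 for 8 of these genes on the LA side and 8 on the RA side. All LA arrays lay above all RA arrays for 3, and the reverse held for 3.

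Ckmt2, the mitochondrial creatine kinase of striated muscle, was 2.3-fold higher in LA at one probe (SE 0.086, adjusted p = 8.34e-05) and 2.28-fold at a second (SE 0.123, adjusted p = 0.000937). Its first probe had values of 0.47, 0.37, 0.44 and 0.39 in LA, against -1.08, -0.70, -0.70 and -0.66 in RA. The cytosolic muscle isoform Ckm differed by -0.12 (SE 0.107). Tnni2, the fast skeletal troponin I, was 2.33-fold higher in LA (SE 0.12, adjusted p = 0.000792), with values of 0.72, 1.09, 0.57 and 0.64 in LA, against -0.22, -0.54, -0.65 and -0.45 in RA, and was the one of 17 skeletal muscle genes that passed. Tubb2b (2.31-fold, SE 0.134, adjusted p = 0.00151) and the endocytic protein Sh3gl2 (2.28-fold, SE 0.098, adjusted p = 0.000243) were also among the 20 genes of largest difference in LA. Tubb2b passed at 1 of 6 probes, the others lying between -0.02 and 0.55, and Sh3gl2 at 1 of 3, the others at -0.03 and 0.02. Inmt, a methyltransferase, was another (2.5-fold), whose adjusted p of 0.0329 was lost without any of LA replicates 2, 3 and 4 and RA replicates 1, 2 and 3 (up to 0.105).

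Among named genes the largest fold was that of Myl2, the ventricular myosin regulatory light chain. Myl2 had values of -0.40, -0.75, -0.46 and -0.83 in LA, against 0.45, 4.38, 4.10 and 5.62 in RA. RA replicate 1 lay near the LA arrays and the other 3 RA arrays far above them. The fold was 19.0 (SE 0.861, adjusted p = 0.0352), 39.7 without RA replicate 1 (adjusted p = 5.36e-05), and the adjusted p was above the threshold without any other single array, up to 0.108 without RA replicate 3. Of 13 measured ventricular genes Myl2 was the one that passed, with Myl3 at -0.16, Irx4, the ventricular transcription factor, at 0.03 and Myh7 at 0.12. The list's median was 0.03. Whether ventricular tissue took part in the RA samples was not tested.

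Adm, the vasodilator peptide adrenomedullin, had values of -0.68, -0.84, -0.73 and -0.73 in LA, against 1.15, 0.85, 1.45 and 1.62 in RA, or 4.02-fold higher in RA (SE 0.138, adjusted p = 6.28e-05). The LA arrays nearly coincided. Its receptor subunit Ramp2 was 1.5-fold higher in RA (SE 0.099, adjusted p = 0.0148) and fell below 1.5-fold without any of LA replicates 1 and 4 and RA replicates 1 and 3, while the receptor Calcrl differed by -0.06 (SE 0.059). Adm and Ramp2 were the 2 of 32 vasoactive peptide and receptor genes that passed. Igfbp3, the main carrier of insulin-like growth factors in blood, had -0.56, -0.30, -0.41 and -0.53 in LA, against 1.65, 1.51, 1.48 and 1.27 in RA, or 3.81-fold higher in RA (SE 0.084, adjusted p = 1.12e-06), and was the one of 16 genes of its list to pass.

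Dbh, the enzyme that turns dopamine into noradrenaline, had values of -0.75, -1.02, -0.52 and -0.55 in LA, against 0.48, 0.88, 0.91 and 0.96 in RA, or 2.86-fold higher in RA (SE 0.13, adjusted p = 0.00035). Tyrosine hydroxylase (Th), which precedes it in the pathway, differed by 0.08, and Dbh was the one of 16 adrenergic and cholinergic genes that passed. Ptgds, the prostaglandin D synthase, was 3.0-fold higher in RA (SE 0.172, adjusted p = 0.00132), and Pla2g5, a phospholipase, 1.65-fold (SE 0.108, adjusted p = 0.00826). The sodium pump regulator Fxyd3 was 3.13-fold (SE 0.166, adjusted p = 0.000855) and Cst9, a cystatin, 7.34-fold higher in RA (SE 0.285, adjusted p = 0.000808). Cst9 spread over 0.79, 1.99, 2.40 and 1.51 in RA, above -0.96, -1.40, -1.03 and -1.44 in LA. Hsd11b1, which regenerates active glucocorticoid, was higher in RA at 3 of its 4 probes, by 1.79-fold to 1.88-fold.

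Of 32 left-right and atrial transcription regulators that could be named, 5 passed on the RA side and 0 on the LA side. Over all named genes these shares were 0.464% and 0.35%. The list also holds Bmp10, Hey1 and Tcf21. Smarcd3, the cardiac subunit of the BAF chromatin complex, had values of -0.33, -0.61, -0.35 and -0.34 in LA, against 0.36, 0.82, 0.69 and 0.71 in RA, or 2.07-fold higher in RA (SE 0.1, adjusted p = 0.000645). Msc, or musculin, a helix-loop-helix repressor, was 2.41-fold higher in RA (SE 0.146, adjusted p = 0.00172). The sinus node regulator Tbx3 had adjusted p of 0.0212 and 0.0192 at 2 probes with differences of -0.45 and -0.40, short of 1.5-fold, and -0.10 at one more probe. Its partner Shox2 differed by -0.09 to 0.03 at its 3 probes. Among 12 conduction and sinus node genes, Rgs6, which shortens muscarinic signalling at the pacemaker, was the one that passed, 1.64-fold higher in RA (SE 0.074, adjusted p = 0.000937).

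In the list of 14 endocardial and large vessel genes, Tmem108 was 2.44-fold (SE 0.111, adjusted p = 0.00035) and Vwf, the von Willebrand factor, 1.7-fold higher in RA (SE 0.087, adjusted p = 0.00171), and these 2 passed. The values are those of whole atria. On the LA side, the water channel Aqp1 of capillary endothelium was higher at each of its 3 probes, by 1.69-fold to 1.8-fold (highest adjusted p = 0.00838). Among pan-endothelial genes, Cdh5 differed by 0.01 (SE 0.107), and Pecam1 by -0.18 (SE 0.158) at one probe and -0.52 (SE 0.052, adjusted p = 0.000874) at a second, which at 1.43-fold was short of the fold limit. Rgs5 of pericytes (2.14-fold, SE 0.185, adjusted p = 0.0152) and Vtn, vitronectin (1.69-fold, SE 0.066, adjusted p = 0.000369), were higher in LA. The cGMP-forming Gucy1a1, a subunit of the nitric oxide receptor, was higher in LA at 2 probes, by 1.86-fold and 1.77-fold (adjusted p = 0.00458 and 0.000966).

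Erythroid genes had a median of -0.35 over 8 measured genes, the lowest of the 70 lists. Hbb-b2, an adult beta globin, had values of -1.04, -0.48, -0.52 and -0.95 in LA, against 0.51, -0.02, 0.39 and 0.09 in RA, or 1.99-fold higher in RA (SE 0.152, adjusted p = 0.00931). Alas2, an erythroid enzyme of haem synthesis, was 1.95-fold higher in RA (SE 0.169, adjusted p = 0.0177), a call lost without LA replicate 3 or RA replicate 3 (adjusted p up to 0.0591). The list's mean was -0.295, -0.101, -0.092 and -0.354 in the LA arrays, against 0.167, 0.133, 0.229 and 0.057 in the RA arrays. The part of blood left in the atria in other differences was not tested. Of 13 mast cell genes 2 passed higher in RA (median -0.24), the histidine decarboxylase Hdc at 1.96-fold and the carboxypeptidase Cpa3 at 1.57-fold. Without RA replicate 3 neither passed (adjusted p = 0.0536 and 0.0558), and Cpa3 also fell below 1.5-fold without RA replicate 4. Cpa3 passed at 1 of 3 probes, with -0.49 (SE 0.134, adjusted p = 0.12) and 0.02 at the others.

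Large lists of housekeeping genes had small median differences. Genes of the mitochondrial ribosome had a median of 0.09, with 54 of 75 above 0, and those of the respiratory chain a median of 0.07, with 58 of 80 above 0, against 49.7% of all named genes. All LA arrays lay above all RA arrays for 11 genes of the former list and 10 of the latter, against 3.85% of named genes. The reverse held for 1 and 0. Cytoplasmic ribosome genes had a median of -0.155, with 18 of 61 above 0 and 16 whose RA arrays all lay above the LA arrays, against 4.08% of named genes. In limma 0 of these genes passed. The unadjusted p was under 0.05 for 29 mitochondrial ribosome genes on the LA side and 2 on the RA side, for 22 and 3 of the respiratory chain, and for 3 and 29 of the cytoplasmic ribosome. Over all probes these shares were 6.16% with LA higher and 6.47% with RA higher. The mean over the mitochondrial ribosome list was 0.121, 0.008, 0.085 and 0.012 in the LA arrays, against -0.02, -0.059, -0.047 and -0.016 in the RA arrays. LA replicates 1 and 3 were the highest.

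**Figure D4:**
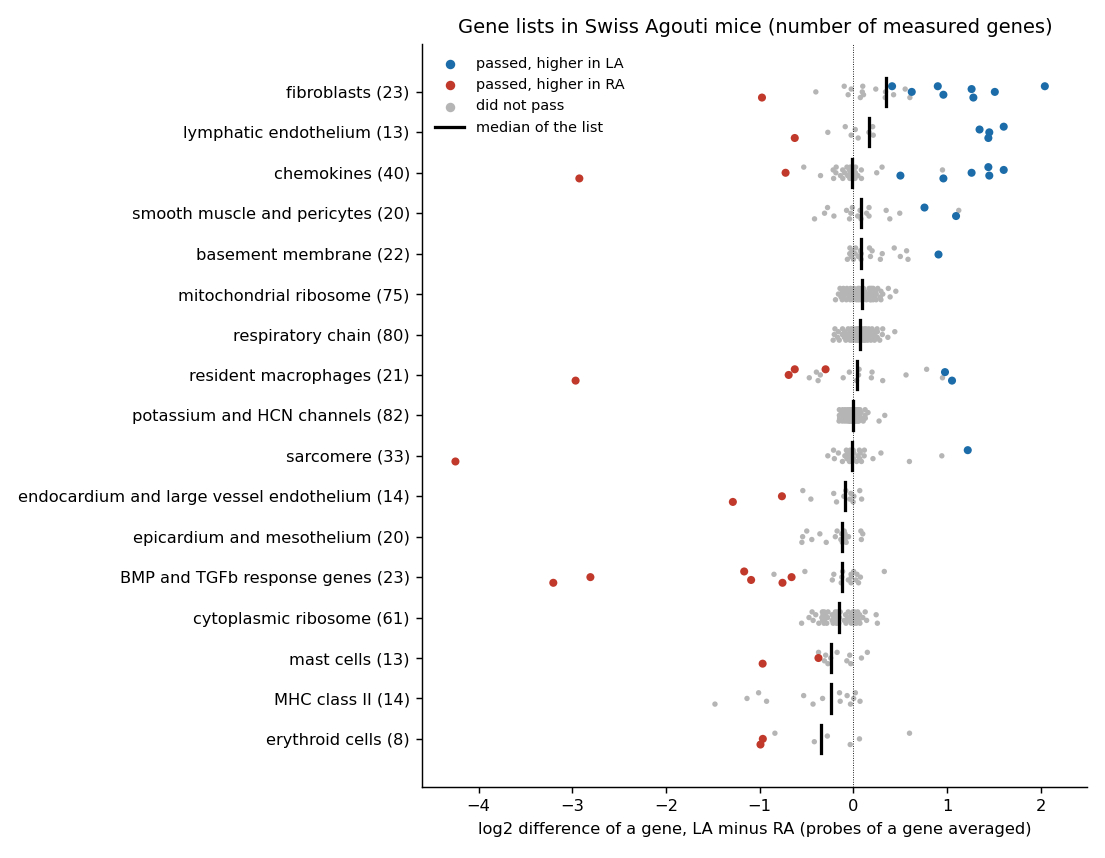
Log2 difference LA minus RA of each measured gene (x axis, probes of a gene averaged) in a choice of the 70 gene lists (rows, number of measured genes in brackets), with a bar at the median; blue and red points passed higher in LA and RA. The fibroblast list lies furthest to the LA side (median 0.34) and the erythroid list furthest to the RA side (median -0.35), while macrophage and chemokine genes lie on both.

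The same comparison in MF1_12 was set beside that of Swiss Agouti. In MF1_12 203 probes passed (0.79%). MF1 LA replicate 2 had a spread around its group mean of 0.226, against 0.104 to 0.154 in the other MF1 arrays. Of the 162 probes of Swiss Agouti mice, 75 passed on the same side in MF1_12, or 46.3% of the probes of Swiss Agouti and 36.9% of those of MF1. A further 82 of the 162 had a difference of the same sign in MF1_12 without passing there. Among these were Ckmt2 (1.20 in SA_12 and 0.62 in MF1_12 on the log2 scale at its first probe), Htra3 (1.13 and 0.21), Lamb3 (0.91 and 0.03), Cst9 (-2.88 and -1.19) and Myl2 (-4.25 and -1.08).

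Passing in one strain and not in the other does not show a difference, so the difference itself was tested. In limma 2 probes passed that test (0.00778% of all probes), and 0 of the 87 probes that had passed in Swiss Agouti alone, although 7.37% of all probes had an unadjusted p under 0.05. At the second Cd207 probe the difference LA minus RA was -2.51 in SA_12 and -3.44 in MF1_12, so that the RA excess was smaller in Swiss Agouti (SA_12 minus MF1_12 0.92, SE 0.128, adjusted p = 0.0333). At Mgmt, a DNA repair enzyme, it was -0.18 in SA_12 and -0.92 in MF1_12 (SA_12 minus MF1_12 0.74, SE 0.092, adjusted p = 0.0175). Both calls were lost on the omission of any of several single arrays. Cd207 lost its call without any of LA replicates 1, 2 and 4 and RA replicates 3 and 4 of Swiss Agouti (adjusted p up to 0.135), and Mgmt without any of LA replicates 1 and 2 and RA replicate 3 (up to 0.0748). Of the MF1 arrays, the omission of LA replicate 1 or 4 or RA replicate 1, 3 or 4 took the call of Cd207 (up to 0.134), and that of RA replicate 3 or 4 the call of Mgmt (up to 0.0549). With the replicate number within strain as a block, 0 probes passed, and Cd207 and Mgmt were both at an adjusted p of 0.0525.

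The 5 remaining probes of the 162 had the opposite sign in MF1_12. Adamts19, a secreted protease, differed by 0.62 in SA_12 and -0.23 in MF1_12, Vstm2b by 0.60 and -0.32, and the heparan sulfate enzyme Hs3st1 by 0.59 and -0.31. Gm5797 differed by -1.04 in SA_12 and 0.29 in MF1_12, and 4930555G01Rik by -0.66 and 0.27. None of the 5 passed in MF1_12 or for the difference between strains (adjusted p = 0.114 to 0.24). In Swiss Agouti, Adamts19 missed the threshold with the replicate block (adjusted p = 0.0525).

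**Figure D5:**
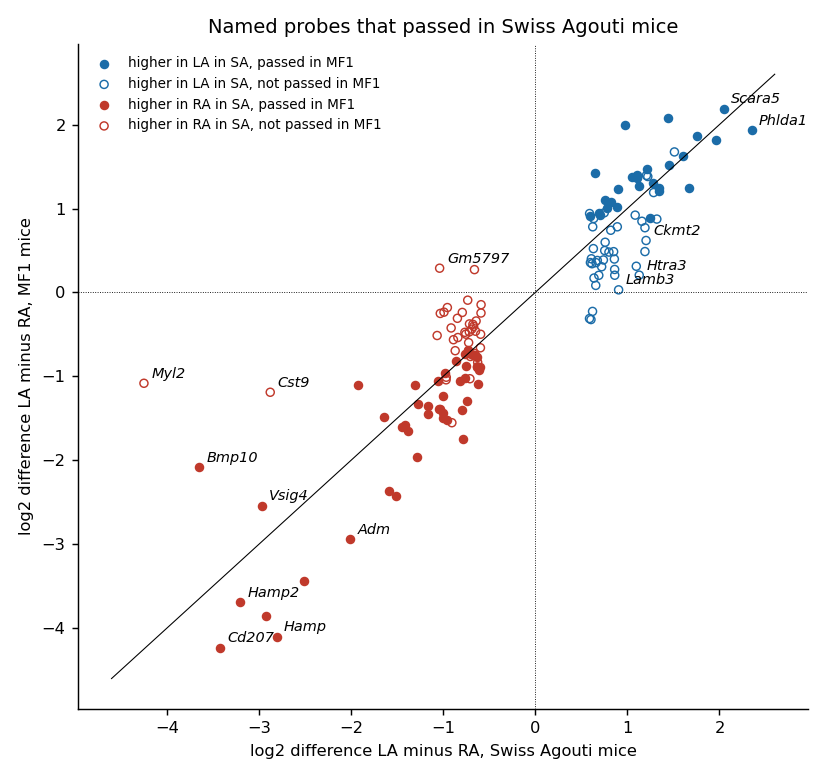
Log2 difference LA minus RA in Swiss Agouti mice (x axis) against that in MF1 mice (y axis) for the named probes that passed in Swiss Agouti; filled points passed in MF1 as well, and the diagonal marks equal differences. All but 5 of the points have the same sign in both strains, with Myl2 and Cst9 further from 0 in Swiss Agouti.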

How the data were processed

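RNA of 4 LA and 4 RA samples of Swiss Agouti mice and as many of MF1 mice was hybridized to Illumina MouseRef-8 v2.0 arrays by the authors. The deposited log2 values were quantile normalized by the authors within each strain's dataset and set relative to the median of each probe, so that no level, background or detection call remains, and the number of arrays limits the precision. A table of values before normalization was not used, since its 16 sample columns match no label. Probes were named through the platform annotation, which left 1719 of 25697 unnamed.

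LA minus RA was fitted in the 8 Swiss Agouti arrays with limma 3.58.1 (R 4.3.3; lmFit and eBayes), with Benjamini-Hochberg adjustment over all probes. The limits were an adjusted p of 0.05 and a fold of 1.5. The difference between strains was an interaction term over all 16 arrays. P-values measure the spread between the arrays of a side and take LA and RA arrays as separate samples, although both atria of the same 4 mice appear to have been used. The fit was tested on simulated data. Genes were named when among the 20 largest differences of a side, in the study's text, among passing members of a gene list or for several passing probes, for a difference between strains, or beside such members for their role. The members and the gene lists were chosen with earlier results of these data known. Alternatives were the replicate number as a block, all 16 arrays, array weights, robust eBayes, ordinary variance, median centring, renewed quantile normalization, other limits and the omission of each array.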

Additional observations from a re-analysis of the deposited data

Results flagged for a closer look

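In groups of 4 arrays, 8 of 212 probe and group pairs (3.77%) held an array far from its 3 companions, and 4 of the 8 were in RA replicate 4. The limit used flags about 1 in 20 by chance, but these probes were chosen for passing in the same arrays. The share therefore cannot be compared with that rate. RA replicate 4 was at -0.13 for Ccl11 (others -0.66 to -0.59), at -0.36 for Reln (others -0.97 to -0.95), at -0.31 for Timp4 (others -0.57 to -0.55) and at 0.19 for Vwf (others 0.43 to 0.46). RA replicate 1 was at -1.08 for Ckmt2 (others -0.70 to -0.66) and at 0.48 for Dbh (others 0.88 to 0.96). RA replicate 3 was at -0.55 for Phlda1 (others -1.31 to -1.22), and LA replicate 2 at -0.61 for Smarcd3 (others -0.35 to -0.33). In each case the array stayed on its own side of the other atrium's arrays.

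The difference LA minus RA was unlike in SA_12 and MF1_12 for 2 probes by the interaction term. For Cd207 it was -2.51 in SA_12 and -3.44 in MF1_12, apart by 0.92 (SE 0.128, adjusted p = 0.0333 in limma), with all RA arrays above all LA arrays in Swiss Agouti. For Mgmt it was -0.18 in SA_12 and -0.92 in MF1_12, apart by 0.74 (SE 0.092, adjusted p = 0.0175). With the replicate block both were at 0.0525. Strain, sex and dataset cannot be told apart in these differences.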

How the results depend on the processing

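The 162 passing probes of Swiss Agouti (74 higher in LA, 88 higher in RA) became 37 (16 and 21) with ordinary instead of moderated variance, 518 (257 and 261) by adjusted p alone and 62 (31 and 31) with a fold above 2. With all 16 arrays fitted together there were 120 (57 and 63), of which 115 were shared. Of the 106 passing probes of genes chosen for the text, 24 lost their call in that fit. Ordinary variance took the call of 76 of them. Without 1 array there were 134 to 196 (64 to 96 higher in LA and 70 to 100 higher in RA), and 111 of the 162 kept their call under every omission. The 2 probes that differed between strains became 4 with array weights and 0 with ordinary variance, and 0 to 4 without 1 Swiss Agouti array. Without 1 MF1 array, omissions chosen after seeing the data, there were 0 to 9, with 9 without MF1 LA replicate 2. Of 70 gene list medians 31 were above 0, and 23 to 31 without 1 array. The lists' counts of passing members under each alternative were chosen after seeing the data. The arrays appear to come from 4 mice per strain, but whether a replicate number is an animal is not stated, and the deviations of same-numbered LA and RA arrays correlated between -0.112 and 0.138, which does not settle the pairing. A fit with a replicate block passed 165 probes (154 of them shared), and 0 differed between strains, with Cd207 and Mgmt both at an adjusted p of 0.0525 in limma. The block also took the call of Adamts19 (0.0525), C1qb (0.0691), Cd248 (0.0801) and Lum (0.0622). Robust eBayes took that of Myl2 (adjusted p = 0.116), Inmt (0.0825), Fcna (0.0782), Gm5797 (0.0631) and Lum (0.0517). No named probe changed direction under these alternatives. Centred values give no signal over background, so dim probes could not be set apart.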
